A study of Mus musculus with 9 samples.

Results

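The interferon-stimulated genes are a set of 46 mouse genes whose transcription is raised by interferon signaling. The 46 were taken by symbol from a list of interferon-response genes, and all 46 were present among the 50686 genes of the RNA-Seq table. This list and the other gene lists were chosen with earlier results of these data known. Their shares, set beside those of all genes, are therefore descriptions. The libraries came from control MC3T3-E1 cells, a mouse osteoblast line, from MC3T3-E1 cells treated with 10 μM SB216763, a small-molecule inhibitor of the kinase GSK3, for 14 days, and from mouse pulmonary endothelial cells (ECs) that received no treatment, and n = 3 libraries were sequenced per group, 9 in all. The study used the ECs as controls and reports that SB216763 drives osteoblasts toward an endothelial state. Both osteoblast groups are the same cell line, and the time in culture of the controls was not given in the sources used here. According to the study, the ECs were isolated by FACS, a sort by flow cytometry. Cell type and source differ together between the ECs and the cell line and cannot be told apart. The protocol label carries the SB216763 treatment for every sample, so the groups were taken from the titles and treatment entries. Nothing in the labels says that replicates were separate cultures or animals, and the p-values measure the spread between these libraries.

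Cells answer interferons through receptor pairs on their surface. Type I interferons signal through IFNAR1 and IFNAR2 to the kinases JAK1 and TYK2, which phosphorylate STAT2 among other targets, and a complex that holds STAT2 and IRF9 binds the interferon-stimulated response element (ISRE) in promoters. Interferon gamma signals through IFNGR1 and IFNGR2 to JAK1 and JAK2, and its targets carry gamma-activated sites (GAS), one of them in the promoter of Irf1. The products of the genes sense viral RNA and DNA, block entry, translation, or replication of viruses, or feed back on the pathway, and many are also expressed at a basal level without infection.

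The promoters of 8 members are shown as examples of windows with and without matches to these elements. Each run is the 160 bases before the RefSeq transcription start site on GRCm38.p6, written 5′ to 3′ on the strand of the gene. Capitals mark matches on either strand to the ISRE core GAAANNGAAA or to the GAS sequence TTCNNNGAA, and overlapping matches form one run of capitals.
Ifit3: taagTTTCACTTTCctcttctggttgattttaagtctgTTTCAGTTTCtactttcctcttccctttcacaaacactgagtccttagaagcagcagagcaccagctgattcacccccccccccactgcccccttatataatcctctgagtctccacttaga
Igtp: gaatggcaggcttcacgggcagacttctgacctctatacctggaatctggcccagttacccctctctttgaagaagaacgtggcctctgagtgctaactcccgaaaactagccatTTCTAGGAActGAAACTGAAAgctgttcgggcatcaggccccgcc
Gbp3: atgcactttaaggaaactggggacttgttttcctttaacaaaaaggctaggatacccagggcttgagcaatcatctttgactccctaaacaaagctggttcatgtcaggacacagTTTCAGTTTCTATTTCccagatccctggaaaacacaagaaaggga
Irf1: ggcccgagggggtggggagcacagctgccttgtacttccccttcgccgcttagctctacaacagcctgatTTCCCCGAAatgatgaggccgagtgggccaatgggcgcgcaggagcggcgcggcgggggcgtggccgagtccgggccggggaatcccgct
Bst2: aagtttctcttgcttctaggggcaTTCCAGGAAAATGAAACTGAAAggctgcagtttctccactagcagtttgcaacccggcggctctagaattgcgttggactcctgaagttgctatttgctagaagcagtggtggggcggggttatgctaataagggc
Oas1a: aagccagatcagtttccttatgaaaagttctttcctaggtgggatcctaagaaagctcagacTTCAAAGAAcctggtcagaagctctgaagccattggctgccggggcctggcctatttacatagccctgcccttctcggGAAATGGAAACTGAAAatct
Oasl2: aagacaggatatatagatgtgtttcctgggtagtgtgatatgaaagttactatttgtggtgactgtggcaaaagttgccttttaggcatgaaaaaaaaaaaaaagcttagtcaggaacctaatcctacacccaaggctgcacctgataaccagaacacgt
Xaf1: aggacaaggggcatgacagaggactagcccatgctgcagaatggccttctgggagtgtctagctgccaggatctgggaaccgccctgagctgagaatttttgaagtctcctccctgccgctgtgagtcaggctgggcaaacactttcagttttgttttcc
The windows lie at chr19:34583369-34583528 for Ifit3, chr11:58199396-58199555 for Igtp, chr3:142559884-142560043 for Gbp3, chr11:53769854-53770013 for Irf1, chr5:114896774-114896933 for Oasl2, and chr11:72301469-72301628 for Xaf1, all on the plus strand. Those of Bst2, at chr8:71537473-71537632, and Oas1a, at chr5:120907526-120907685, are on the minus strand. Ifit3 and Gbp3 held ISRE cores, Irf1 a GAS alone, and Igtp, Bst2, and Oas1a both. Oasl2 and Xaf1 held neither in these letters.

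Full windows of 300 bases, 250 before the start site and 50 after it, were found in RefSeq for 36 of the 46 members. Those without one were Dhx58, Zbp1, Usp18, Oas2, Mx1, Mx2, Rtp4, Parp9, Parp14, and Iigp1, so the promoter counts leave out 3 of the 6 members that rose by 4-fold or more with SB216763 (Zbp1, Mx2, and Iigp1). The ISRE core was present in 19 of the 36 (52.8%), compared with 1079 of the 27025 genes with a window (3.99%). The GAS sequence was present in 10 of the 36 (27.8%), compared with 9.55% of all genes, and 6 members (Bst2, Eif2ak2, Gbp7, Ifitm3, Igtp, and Oas1a) held both, compared with 0.614% of all genes. The ISRE core is shared with the sites of other IRF proteins, and a match is a description of the letters.

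**Figure D1:**
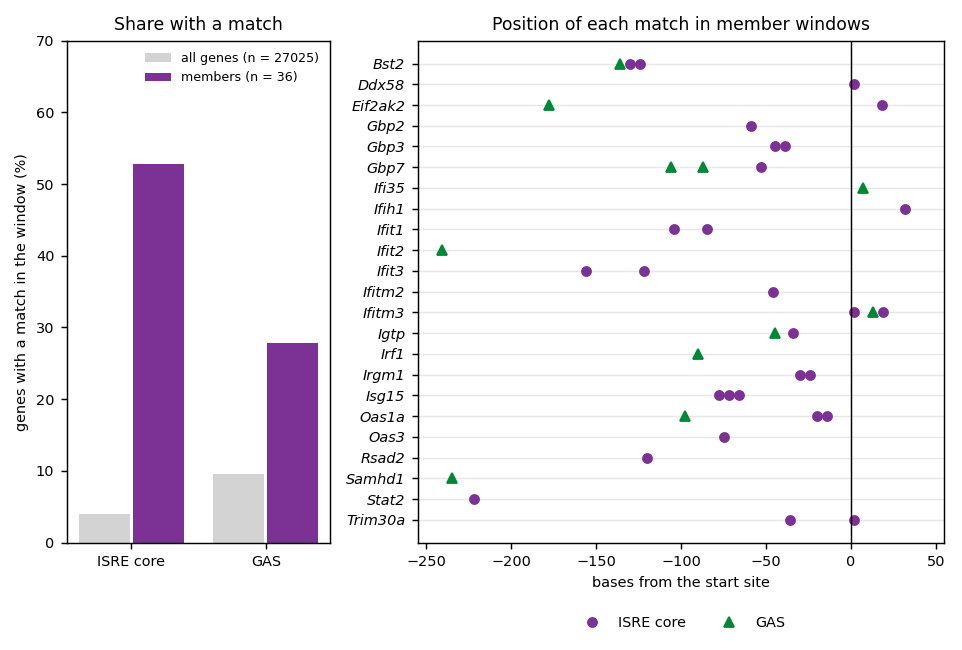
Left, the share of genes (%) with at least 1 match in the 300-base window, for all 27025 genes with a window (grey) and the 36 members with one (purple). Right, the position of each match in bases from the start site for the members that have any, with ISRE cores as circles and GAS as triangles. The members' share is 52.8% for the ISRE core and 27.8% for GAS, and most ISRE cores lie in the last 160 bases before the start site.

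The libraries held 30990107 to 68946333 counts, and 15531 genes passed the filter on low counts and were tested. Levels are given in CPM, read counts scaled to the library size by TMM, and 3 counts correspond to 0.0473 to 0.104 CPM, a limit that covers counting error only. The summed level of 8 endothelial markers (Pecam1, Cdh5, Kdr, Tie1, Tek, Emcn, Nos3, and Egfl7) was 6812 to 6963 CPM in the ECs, 3.01 to 3.75 CPM in control, and 2.92 to 3.41 CPM in SB216763-treated osteoblasts, where the ranges of both osteoblast groups overlapped. The summed level of 8 osteoblast markers was 43920 to 59350 CPM in control, 8068 to 8340 CPM in treated osteoblasts, and 45.3 to 64.7 CPM in ECs. Col1a1 and Col1a2 made up most of this sum. The mean of Runx2 went from 157.6 CPM in control to 116.4 CPM in treated osteoblasts, and that of Phex from 0.744 to 0.532 CPM. The difference of Phex did not pass (adjusted p = 0.102 in edgeR's quasi-likelihood test). Larger falls were those of Sp7 (297.6 to 25.98 CPM), Alpl (34.01 to 0.468 CPM), Ibsp (151.7 to 11.4 CPM), and Bglap (4.316 to 2.001 CPM). The 8 leukocyte markers summed to 0.331 to 0.556 CPM in control, 0.43 to 0.953 CPM in treated osteoblasts, and 1.1 to 1.55 CPM in ECs. Cd3e was at 0 in all 9 libraries, and 6 of the 8, Ptprc among them, were below the filter. Of 8 macrophage markers, Cd68 was at 46.6 ± 0.986 CPM (SD, n = 3) in the ECs, and C1qa, C1qb, Fcgr1, Adgre1, and Mrc1 were below the filter. Lyz2 went the other way, at 26.0 ± 1.15 CPM in control, 7.04 ± 0.832 CPM in treated osteoblasts, and 10.45 ± 0.322 CPM in ECs. Csf1r was at 0.652 ± 0.0829, 0.2285 ± 0.0404, and 1.41 ± 0.465 CPM in the same order. The macrophage list summed to 26.7 to 28.3 CPM in control, 8.58 to 10.1 CPM in treated osteoblasts, and 57.3 to 59.6 CPM in ECs, and 8 lung epithelial markers to 0.601 to 0.799, 2.35 to 3.32, and 1.49 to 2.43 CPM in the same order. In that order, 6 smooth muscle and pericyte markers summed to 262.4 to 321.3, 752.9 to 767.9, and 7.58 to 8.25 CPM, and 5 lung fibroblast markers to 4642 to 4983, 397.6 to 443.1, and 63.9 to 66.7 CPM. In osteoblasts, Pdgfrb made up most of the first sum (mean 253.5 CPM in control and 745.9 CPM in treated). The mean of Cspg4 went from 33.2 to 3.14 CPM. In control, Npnt made up most of the second sum, and its mean went from 4459 to 61.3 CPM in treated osteoblasts. Dcn also had a lower mean in treated osteoblasts (263.9 to 211.4 CPM). Pdgfra (33.3 to 67.0 CPM) and Lum (53.15 to 87.9 CPM) had higher means. The part of these other cell types in the results was not tested. In bulk RNA, fewer cells of a kind and less RNA per cell cannot be told apart.

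The interferon-stimulated genes were expressed in all 3 groups, at levels that ranged over several orders of magnitude between members. On the scale of RPKM, which divides by exon length, the median member level was 0.962 in control, 1.96 in SB216763-treated osteoblasts, and 3.14 in ECs. Ifitm3, a membrane protein that blocks virus entry, was the highest member in every group, at 260.2 ± 13.8 RPKM in control, 174 ± 7.88 RPKM in treated osteoblasts, and 346 ± 3.91 RPKM in ECs (SD, n = 3). At the low end, the dynamin-like GTPase Mx1 had 6, 9, and 8 counts summed over the control, treated, and EC libraries. It was the single member below the filter, which left 45 tested.

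**Figure D2:**
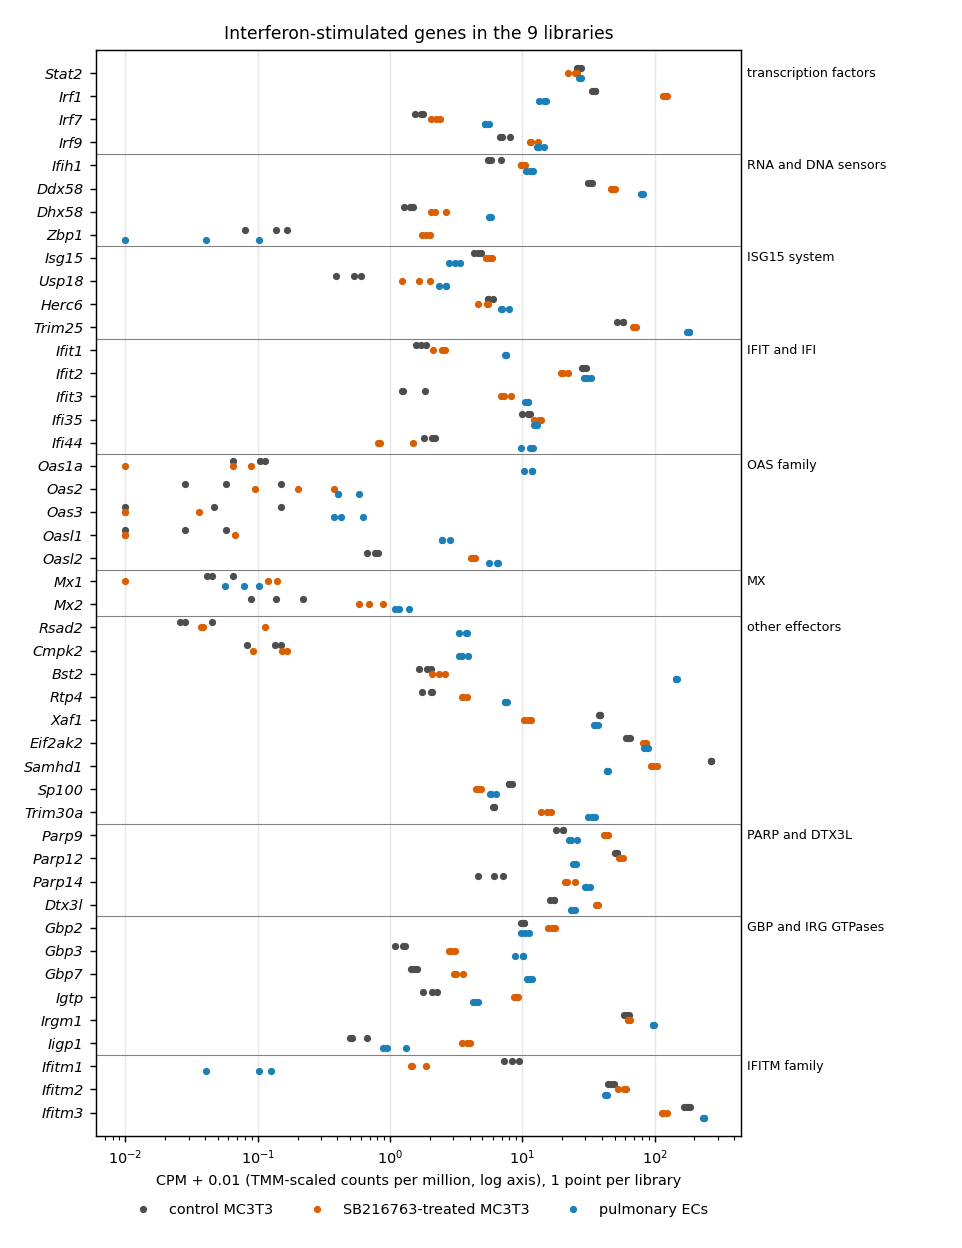
Level of each of the 46 members in each of the 9 libraries, as CPM + 0.01 on a log axis, with 1 point per library and members grouped by role. Points at 0.01 are libraries without counts. Libraries of a group lie close together above 1 CPM, and Bst2, Oas1a, Oasl1, Rsad2, and Cmpk2 stand out in the ECs.

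SB216763-treated osteoblasts had higher RNA levels than control osteoblasts for most interferon-stimulated genes and lower levels for a smaller group. Of the 45 tested, 27 rose (60.0%), 7 fell (15.6%), and 11 did not pass, at an adjusted p under 0.01 in edgeR's quasi-likelihood test. Over all 15531 genes, 32.9% rose and 32.0% fell. The median log2 fold change was 0.51 over the 45 members and 0.0142 over all genes. The changes were mostly moderate, with 6 members higher (13.3%) and 1 lower (2.22%) by 4-fold or more, against 3.81% and 5.84% of all genes. The 6 were Zbp1, Iigp1, Oasl2, Mx2, Ifit3, and Igtp, and the 1 was Ifitm1. Zbp1 passed the filter only through the treated libraries. The summed level of the 46 members was 1007 to 1022 CPM in control and 998 to 1028 CPM in treated osteoblasts, which overlap. Samhd1 and Ifitm3, the pair with the highest CPM in control, were among those that fell.

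**Figure D3:**
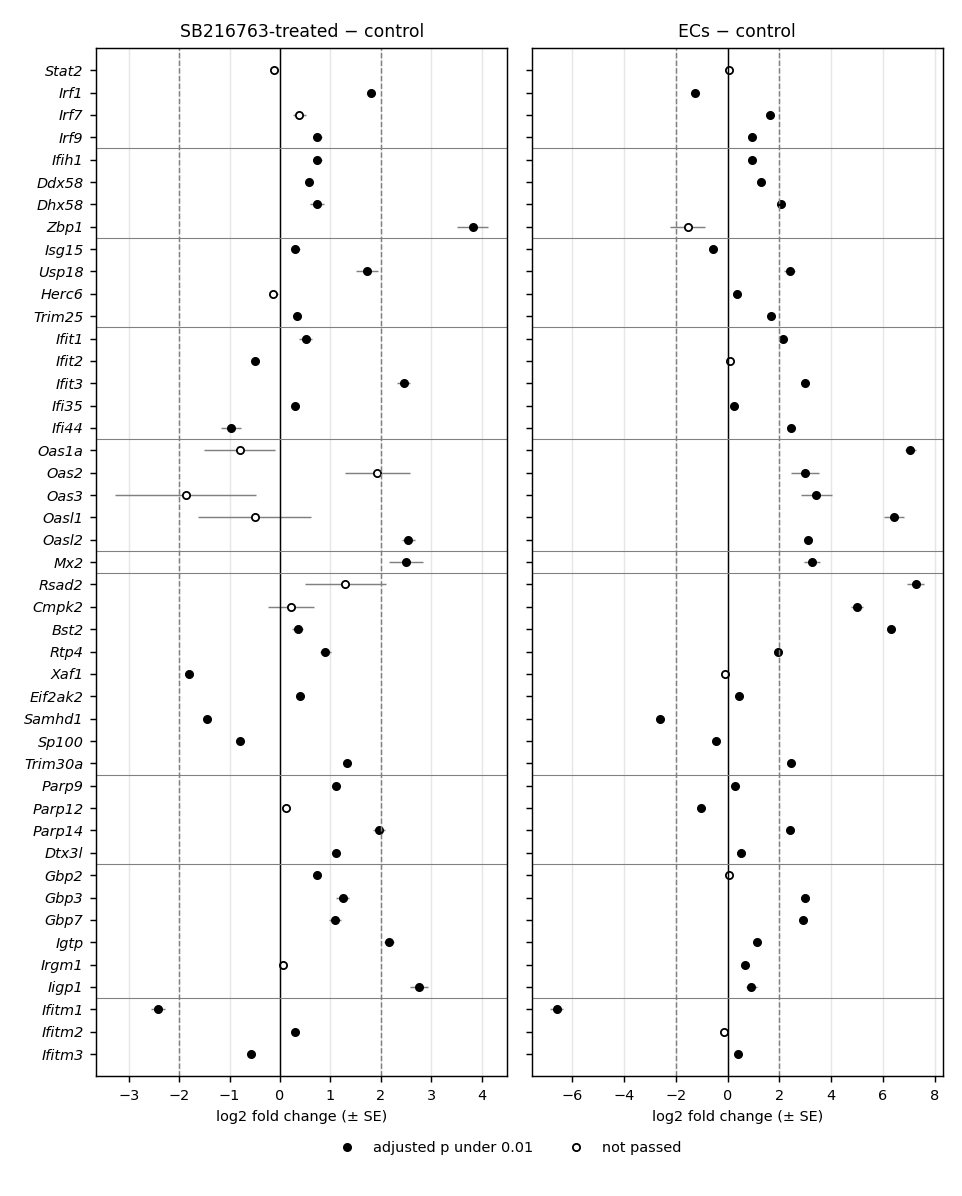
Log2 fold change of the 45 tested members in SB216763-treated against control osteoblasts (left) and in ECs against control osteoblasts (right), with the standard error as a bar. Filled points have an adjusted p under 0.01, open points do not, and dashed lines mark a 4-fold change. On the left 27 filled points lie above 0 and 7 below it, and on the right 33 and 6.

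Among the transcription factors, Irf1 showed the largest rise. IRF1 is a factor that interferon gamma induces and that itself activates many genes of the set. Its level was 33.5, 35.1, and 35.2 CPM in the control libraries, 121.7, 123.8, and 116.6 CPM in the treated libraries, and 13.3, 14.5, and 15.03 CPM in the ECs. The 3 groups did not overlap, and treated osteoblasts held the highest level. The log2 fold change was 1.80 ± 0.05 (SE, adjusted p = 1.74e-14) against control, and the EC level was below both osteoblast groups (log2 fold change -1.28 ± 0.05 against control and -3.08 ± 0.05 against treated, adjusted p = 2.49e-12 and 2.25e-17).

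Irf9, the DNA-binding subunit that joins STAT2, rose from 7.29 ± 0.686 to 12.0 ± 0.947 CPM (SD, n = 3; log2 fold change 0.74 ± 0.08, adjusted p = 9.5e-07) and was at 13.6 ± 0.914 CPM in ECs. Irf9 shares 123 exon bases on the same strand with Rnf31. Stat2 did not pass in any of the 3 comparisons, at 26.6 ± 0.958 CPM in control, 24.3 ± 1.78 CPM in treated osteoblasts, and 27.3 ± 0.577 CPM in ECs. Its call between ECs and treated osteoblasts passed without control replicate 2 (log2 fold change 0.17, adjusted p = 0.00873) and without SB216763 replicate 3 (0.20, adjusted p = 0.00714). Irf7, the factor that amplifies type I interferon production, was at 1.67 ± 0.13, 2.22 ± 0.181, and 5.32 ± 0.196 CPM. It was higher in ECs than in control (log2 fold change 1.64 ± 0.11, adjusted p = 7.93e-10), and the difference between treated and control osteoblasts missed the threshold (0.39 ± 0.13, adjusted p = 0.0116), which it passed with scaling by library size alone (0.59, adjusted p = 0.000516).

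All 4 sensors of foreign RNA or DNA rose with SB216763, compared with 32.9% of all genes tested. Of these, Zbp1 missed the filter in the fit of ECs and control alone. It entered the test through its treated level, so its rise was largely set by the filter. Zbp1, which binds left-handed nucleic acid and can trigger necroptosis, had the largest rise of the 45 members. It was nearly silent in control, at 0.157, 0.127, and 0.0695 CPM, reached 1.72, 1.98, and 1.85 CPM in the treated libraries, and was at 0, 0.0305, and 0.0927 CPM in the ECs. No treated library overlapped a library of the other groups (log2 fold change 3.82 ± 0.31 against control, adjusted p = 1.72e-08, and -5.37 ± 0.41 for ECs against treated, adjusted p = 3.67e-09). ECs against control missed the threshold (-1.55 ± 0.67, adjusted p = 0.0423), and passed without EC replicate 3 (-3.03, adjusted p = 0.00636).

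The 3 helicases of the RIG-I family were lowest in control and higher in both other groups. Ddx58, which encodes RIG-I, was at 32.7 ± 1.19 CPM in control, 48.5 ± 1.47 CPM in treated osteoblasts, and 80.4 ± 1.85 CPM in ECs, and each step passed the test (adjusted p = 1.22e-08 for treated against control and 2.22e-10 for ECs against treated). Dhx58, which encodes LGP2, followed the same order at 1.38 ± 0.117, 2.28 ± 0.32, and 5.68 ± 0.0952 CPM (adjusted p = 0.000166 and 2.42e-08). Ifih1, which encodes MDA5, rose from 6.06 ± 0.773 to 9.95 ± 0.409 CPM (adjusted p = 1.23e-06), and the EC level of 11.3 ± 0.648 CPM did not pass against the treated level (adjusted p = 0.0492).

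ISG15 is a small protein that is joined to other proteins like ubiquitin, USP18 removes it and also dampens the type I receptor, HERC6 is the ligase that attaches it in mouse, and TRIM25 is a ligase that activates RIG-I. Usp18 rose from 0.52, 0.382, and 0.59 CPM in control to 1.63, 1.23, and 1.99 CPM in treated osteoblasts (log2 fold change 1.73 ± 0.22, adjusted p = 3.82e-06). The ECs were higher still at 2.66, 2.35, and 2.62 CPM, and the difference from treated osteoblasts (adjusted p = 0.00283) was lost without SB216763 replicate 2, EC replicate 1, or EC replicate 3 (adjusted p = 0.0198, 0.0121, and 0.0136). Trim25 rose from 55.7 ± 3.41 to 70.7 ± 1.94 CPM (adjusted p = 1.22e-05), and the ECs held 179.8 ± 3.31 CPM. Herc6 did not pass between the osteoblast groups (log2 fold change -0.13 ± 0.09, adjusted p = 0.217) and was higher in ECs than in control (0.36 ± 0.09, adjusted p = 0.00137).

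Isg15 itself was at 4.28, 4.59, and 4.83 CPM in control, 5.33, 5.60, and 5.86 CPM in treated osteoblasts, and 2.79, 3.38, and 3.10 CPM in ECs. The groups did not overlap, and the ECs were lowest. The rise with SB216763 was small (log2 fold change 0.31 ± 0.09, adjusted p = 0.00841) and lost its call under 11 alternatives, among them the removal of any 1 osteoblast library (adjusted p from 0.01 to 0.049 for these 6). The fall in ECs against control was -0.56 ± 0.10 (adjusted p = 9.85e-05).

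The IFIT proteins bind viral RNA and block its translation, and their genes lie side by side on chromosome 19. Ifit3 rose from 1.23, 1.24, and 1.84 CPM in control to 6.94, 7.25, and 8.25 CPM in treated osteoblasts, with 10.95, 10.96, and 10.42 CPM in ECs (log2 fold change 2.45 ± 0.13 against control, adjusted p = 4.79e-11). Its neighbor Ifit2 moved the other way. It fell from 28.5, 30.5, and 28.9 CPM to 19.7, 20.4, and 22.2 CPM (log2 fold change -0.49 ± 0.06, adjusted p = 2.07e-06), and the ECs, at 31.2 ± 1.95 CPM, did not pass against control (adjusted p = 0.188). The ratio of Ifit3 to Ifit2 within a library was 0.0406 to 0.0636 in control, 0.351 to 0.371 in treated osteoblasts, and 0.329 to 0.356 in ECs. Of the 50-base stretches of Ifit3, 51.2% also occur in Ifit3b, so the split of reads between these copies is uncertain.

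Ifit1 rose by a log2 fold change of 0.51 ± 0.13 (adjusted p = 0.00184), a call that was lost without control replicate 1 (0.43, adjusted p = 0.014), without SB216763 replicate 3 (0.44, adjusted p = 0.0104), or in the fit of only the 2 groups compared (0.48, adjusted p = 0.012), and was 2.15 ± 0.11 higher in ECs than in control. Ifi35, a partner of NMI, rose by 0.29 ± 0.07 (adjusted p = 0.00176) and lost its call without control replicate 1 (0.22, adjusted p = 0.0158). Ifi44 fell with SB216763, from 2.06, 2.19, and 1.81 CPM to 0.803, 0.834, and 1.47 CPM (log2 fold change -0.98 ± 0.20, adjusted p = 0.000347). In ECs it was at 11.3, 12.1, and 9.82 CPM, above both osteoblast groups (log2 fold change 2.43 ± 0.13 against control, adjusted p = 7.75e-11).

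All 5 members of the OAS family were at least 4-fold higher in ECs than in control, and 1 of them rose with SB216763. Over all genes tested, these shares were 13.5% and 32.9%. In the fit of the 2 osteoblast groups alone, Oas1a, Oas2, Oas3, and Oasl1 missed the filter. They entered the test through their EC level, so the count of 5 was largely set by the filter. OAS enzymes make oligoadenylates that activate RNase L, and the OASL proteins are their relatives with a ubiquitin-like tail. Oasl2 rose from 0.662, 0.765, and 0.799 CPM in control to 4.10, 4.40, and 4.33 CPM in treated osteoblasts (log2 fold change 2.55 ± 0.13, adjusted p = 5.59e-11), and the ECs reached 6.50, 5.60, and 6.44 CPM. The other 4 members were near the counting limit in both osteoblast groups and did not pass between them.

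Oas1a was at 11.7, 10.2, and 11.9 CPM in the ECs, against 0 to 0.104 CPM in the 6 osteoblast libraries. The summed counts were 12 in control, 5 in treated osteoblasts, and 1360 in ECs, a ratio of 250 for ECs over treated (95% exact counting interval 107 to 771). Oasl1 had 4, 2, and 310 summed counts, a ratio of 95.3 for ECs over control (36.9 to 352). For both genes the EC libraries lay far above all 6 osteoblast libraries. Oas2 and Oas3 were low in ECs too, at 0.454 ± 0.103 and 0.467 ± 0.134 CPM. The difference of Oas2 between treated and control osteoblasts (log2 fold change 1.93 ± 0.65, adjusted p = 0.0138) passed without control replicate 3 (2.58, adjusted p = 0.00511) or SB216763 replicate 1 (2.28, adjusted p = 0.00425). That between ECs and treated osteoblasts (1.06 ± 0.44, adjusted p = 0.0337) passed without SB216763 replicate 2 (1.69, adjusted p = 0.00702). Of the 50-base stretches of Oas1a, 57.6% also occur in Oas1g.

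Mx2, a dynamin-like GTPase that the annotation lists as a polymorphic pseudogene, rose from 0.0788, 0.127, and 0.208 CPM to 0.688, 0.574, and 0.871 CPM (log2 fold change 2.496 ± 0.34, adjusted p = 6.88e-06). The ECs were at 1.08, 1.37, and 1.16 CPM. The difference between ECs and treated osteoblasts (0.75 ± 0.24, adjusted p = 0.00813) lost its call under 10 alternatives, among them the removal of SB216763 replicate 1 or 2 or of any 1 EC library (adjusted p from 0.0118 to 0.0449 for these 5).

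The other effectors divided into 3 patterns. Rsad2 (viperin), Cmpk2, its neighbor on chromosome 12 that makes nucleotides, and Bst2 (tetherin), which holds budding virus at the membrane, were high in ECs and low in both osteoblast groups. Bst2 was at 1.91, 1.64, and 2.01 CPM in control, 2.06, 2.58, and 2.34 CPM in treated osteoblasts, and 145.7, 147.0, and 145.7 CPM in ECs (log2 fold change 6.32 ± 0.07 for ECs against control, adjusted p = 9.15e-20). The small rise of Bst2 with SB216763 (0.35 ± 0.11, adjusted p = 0.00852) lost its call under 12 alternatives, among them the removal of control replicate 1 or 2, SB216763 replicate 2 or 3, or any 1 EC library (adjusted p from 0.0113 to 0.0909 for these 7). Rsad2 had 3 summed counts in control and 430 in ECs, a ratio of 176 (59.9 to 858), and Cmpk2 was at 0.113 ± 0.035 and 3.55 ± 0.265 CPM. Neither passed between the osteoblast groups (adjusted p = 0.184 and 0.712).

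Trim30a, a negative regulator of NF-κB signaling, Rtp4, a chaperone of receptors, and Eif2ak2, which encodes the kinase PKR that stops translation on double-stranded RNA, formed the second pattern and rose with SB216763. Trim30a went from 6.10, 6.08, and 5.97 CPM in control to 16.4, 13.9, and 15.5 CPM in treated osteoblasts and 33.5, 35.5, and 31.1 CPM in ECs (log2 fold change 1.33 ± 0.08, adjusted p = 2.53e-10). Each step between the groups was without overlap. Rtp4 rose by 0.90 ± 0.11 and Eif2ak2 by 0.41 ± 0.05 on the log2 scale (adjusted p = 1.64e-06 and 1.06e-06).

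Samhd1, Xaf1, and Sp100 formed the third pattern and fell. SAMHD1 degrades deoxynucleotides and so limits reverse transcription. It was at 268.1, 269.1, and 266.6 CPM in control, 97.4, 104.2, and 93.5 CPM in treated osteoblasts, and 44.4, 43.3, and 43.4 CPM in ECs, which was the lowest (log2 fold change -1.45 ± 0.05 and -2.62 ± 0.05 against control, adjusted p = 1.14e-13 and 4.14e-17). Xaf1, which encodes a partner of the inhibitor of apoptosis XIAP, fell from 38.3, 38.6, and 39.0 CPM to 11.04, 11.6, and 10.3 CPM (log2 fold change -1.81 ± 0.06, adjusted p = 6.91e-14). Its EC level of 35.9 ± 1.3 CPM did not pass against control (adjusted p = 0.0621). Sp100, a component of nuclear bodies, was at 8.04 ± 0.212, 4.63 ± 0.193, and 5.92 ± 0.322 CPM in the 3 groups (log2 fold change -0.80 ± 0.08 for treated against control, adjusted p = 1.64e-07).

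The ADP-ribosylation genes Parp9, Parp14, and Dtx3l rose together. PARP9 and the ubiquitin ligase DTX3L form a complex, and PARP14 is a further ADP-ribosyltransferase. Parp14 rose from 6.11, 4.59, and 7.12 CPM in control to 20.9, 21.9, and 25.1 CPM in treated osteoblasts (log2 fold change 1.96 ± 0.11, adjusted p = 1.85e-10), just under 4-fold, and the ECs were at 29.8, 30.5, and 32.4 CPM. Parp9 went from 19.5 ± 1.32 to 42.6 ± 1.9 CPM and Dtx3l from 17.0 ± 0.61 to 36.8 ± 0.608 CPM (log2 fold change 1.12 ± 0.06 and 1.11 ± 0.05, adjusted p = 1.35e-10 and 1.07e-11). Both were lower in ECs than in treated osteoblasts, at 23.9 ± 1.64 and 24.0 ± 0.833 CPM (adjusted p = 2.81e-09 and 8.28e-09). The ratio of Dtx3l to Parp9 stayed between 0.804 and 1.07 in all 9 libraries. These genes lie head to head and share 458 exon bases on opposite strands, and the strand setting of the counting was not given in the sources used here. Parp12 did not pass between the osteoblast groups (log2 fold change 0.11 ± 0.04, adjusted p = 0.0353, or 0.31 and 1.52e-05 with scaling by library size alone) and was lower in ECs (-1.05 ± 0.05 against control).

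The guanylate-binding and immunity-related GTPases take part in the defense against intracellular pathogens. Of the 6, 5 rose with SB216763 and Irgm1 did not pass (log2 fold change 0.06 ± 0.04, adjusted p = 0.272, or 0.26 and 5.11e-05 with scaling by library size alone). Over all genes tested, 32.9% rose. Iigp1, an immunity-related GTPase, had 0.504, 0.655, and 0.486 CPM in control, 4.04, 3.49, and 3.84 CPM in treated osteoblasts, and 1.31, 0.944, and 0.88 CPM in ECs. The treated libraries were above all others (log2 fold change 2.76 ± 0.18 against control, adjusted p = 9.59e-10). The difference between ECs and control (0.91 ± 0.22, adjusted p = 0.00104) lost its call without EC replicate 1 (0.71, adjusted p = 0.0109). Igtp (also called Irgm3) showed the same order, at 1.78, 2.24, and 2.08 CPM in control, 8.69, 9.31, and 8.96 CPM in treated osteoblasts, and 4.47, 4.20, and 4.63 CPM in ECs (log2 fold change 2.15 ± 0.10, adjusted p = 1.25e-11). Igtp shares 162 exon bases with Irgm2 on the same strand.

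Gbp2, Gbp3, and Gbp7 are guanylate-binding proteins encoded next to each other on chromosome 3. They rose by 0.73 ± 0.07, 1.25 ± 0.13, and 1.10 ± 0.12 on the log2 scale (adjusted p = 7.73e-08, 2.31e-07, and 3.24e-07). In ECs, Gbp3 and Gbp7 were higher again, at 9.65 ± 0.734 and 11.3 ± 0.514 CPM against 2.91 ± 0.141 and 3.25 ± 0.286 CPM in treated osteoblasts. Gbp2 was at 10.5 ± 0.685 CPM in ECs, which did not pass against the 10.1 ± 0.336 CPM of control (adjusted p = 0.495).

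The IFITM genes, a cluster on chromosome 7, diverged. Ifitm1 fell from 9.45, 8.36, and 7.29 CPM in control to 1.43, 1.46, and 1.85 CPM in treated osteoblasts and 0.0916, 0.0305, and 0.116 CPM in ECs, and the groups did not overlap (log2 fold change -2.42 ± 0.14 and -6.61 ± 0.23 against control, adjusted p = 1.78e-10 and 1.93e-13). Ifitm3 fell with SB216763, from 174.4, 186.6, and 168.2 CPM to 116.4, 124.0, and 113.7 CPM (log2 fold change -0.58 ± 0.05, adjusted p = 2.57e-08), and was highest in ECs at 231.9, 235.3, and 237.1 CPM. Ifitm2 rose slightly, from 46.8 ± 2.17 to 57.4 ± 4.07 CPM (0.29 ± 0.05, adjusted p = 0.000137), and 48.5% of its 50-base stretches occur in other annotated genes. The ratio of Ifitm3 to Ifitm2 was 3.59 to 3.91 in control, 1.99 to 2.15 in treated osteoblasts, and 5.35 to 5.63 in ECs.

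**Figure D4:**
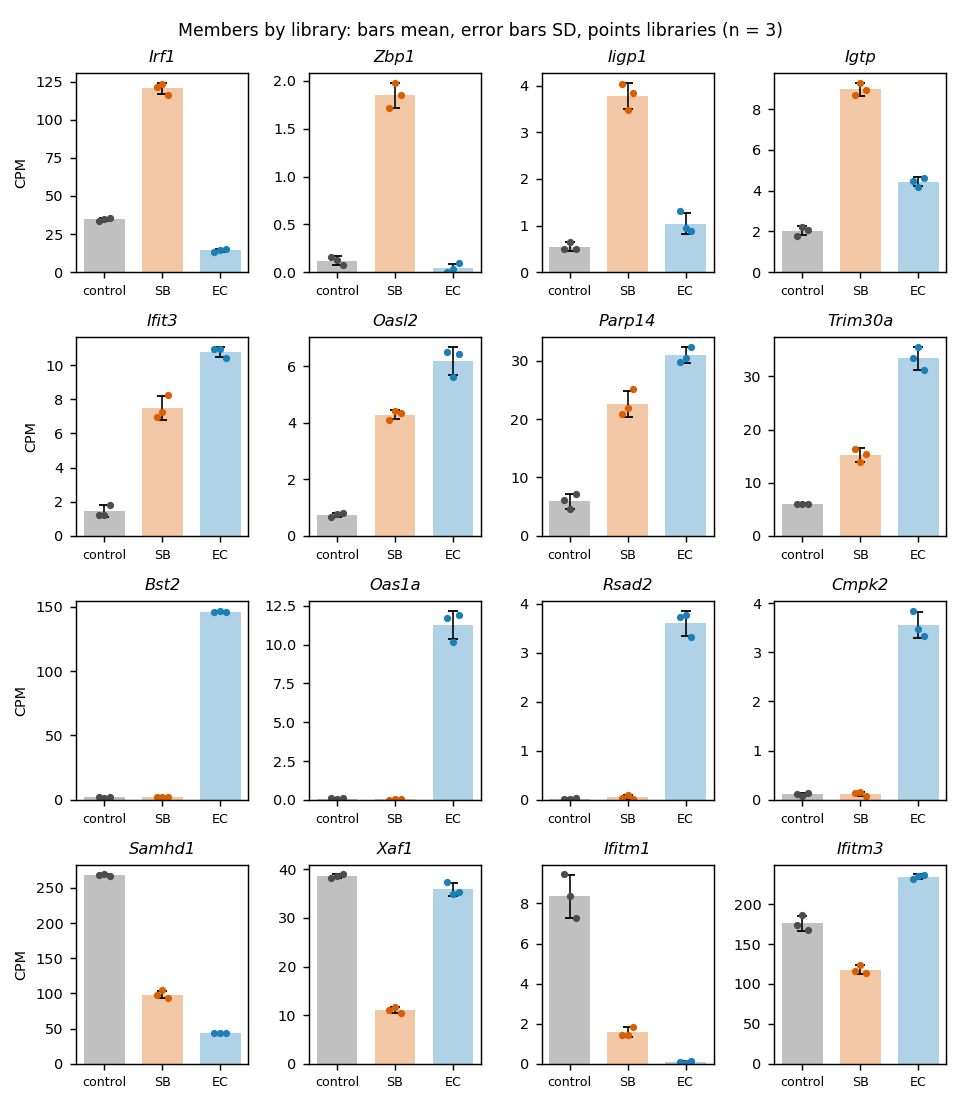
Levels in CPM of 16 members in control, SB216763-treated (SB), and EC libraries, with the mean as a bar, the SD as an error bar, and each of the 3 libraries as a point. Irf1, Zbp1, Iigp1, and Igtp are highest in treated osteoblasts, Bst2, Oas1a, Rsad2, and Cmpk2 in ECs, and Samhd1 and Ifitm1 in control.

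The changes with SB216763 were set beside the promoter matches. Of the 19 members with an ISRE core, 13 rose and 1, Ifitm3, fell, with a median log2 fold change of 0.51. Of the 17 members that had a window without one, 6 rose and 6 fell, with a median of 0.11. The 6 that fell were Ifit2, Ifi44, Xaf1, Samhd1, Sp100, and Ifitm1. Among the 13 that rose with a core, Bst2, Isg15, and Ifit1 lost their calls under 12, 11, and 3 alternatives. Of the 6 that rose without one, Ifi35 lost its call under 1 alternative. Over all genes tested, 32.9% rose and 32.0% fell, and the counts of the 17 are near these shares. In ECs against control, 15 of the 19 with a core were higher and 1 was lower, compared with 10 and 5 of the 17 without. Over all genes tested, 39.0% were higher and 37.9% lower. The difference between members with and without a core was not tested.

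Pulmonary ECs had higher levels than control osteoblasts for most interferon-stimulated genes. Of the 45 tested, 33 were higher (73.3%), 6 were lower (13.3%), and 6 did not pass, compared with 39.0% and 37.9% of all genes. By 4-fold or more, 18 were higher (40.0%) and 2 lower (4.44%), compared with 13.5% and 9.87% of all genes. Among those higher, Oas1a, Oas2, Oas3, Oasl1, Rsad2, and Cmpk2 passed the filter only through the ECs. Their part in these counts was largely set by the filter. The median log2 fold change was 1.14 over the members and 0.00742 over all genes. The 5 largest differences toward a higher level in ECs were those of Rsad2, Oas1a, Oasl1, Bst2, and Cmpk2, described above, and the 2 lower by 4-fold were Ifitm1 and Samhd1. The summed level of the members was 1321 to 1342 CPM in ECs. The call of Ifi35 in this comparison (log2 fold change 0.23 ± 0.07, adjusted p = 0.00833) was lost under 10 alternatives, among them the removal of control replicate 1 or 3, SB216763 replicate 2, or any 1 EC library (adjusted p from 0.0123 to 0.066 for these 6).

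Against the treated osteoblasts, 27 members were higher in ECs (60.0%) and 12 lower (26.7%), compared with 40.3% and 38.3% of all genes. By 4-fold, 7 were higher (15.6%) and 3 lower (6.67%), compared with 15.0% and 10.3% of all genes. The share higher by 4-fold was near that of all genes. The 7 were Ifi44, Oas1a, Oas3, Oasl1, Rsad2, Cmpk2, and Bst2, and the 3 were Zbp1, Ifitm1, and Irf1. Of the 7, all but Ifi44 and Bst2 passed the filter only through the ECs. The median log2 fold change was 0.58, and that over all genes was 0.0205. The 3 comparisons share libraries and are not independent of each other.

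A member was counted as highest in a group when it passed against both other groups. By this rule 24 members were highest in ECs (53.3%), 9 in SB216763-treated osteoblasts (20.0%), and 3 in control (6.67%), and 9 had no single highest group. Over all genes the shares were 29.6%, 20.9%, and 17.6%. Oas1a, Oas3, Oasl1, Rsad2, and Cmpk2 entered the test only through the ECs, and Zbp1 only through the treated libraries. The 9 highest in treated osteoblasts were Irf1, Zbp1, Isg15, Parp9, Dtx3l, Gbp2, Igtp, Iigp1, and Ifitm2, a share close to that of all genes. The 3 highest in control were Samhd1, Sp100, and Ifitm1.

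The other genes of the interferon pathway were a list of 118, also chosen with earlier results of these data known, of which 92 were tested. With SB216763, 54 rose (58.7%), 15 fell (16.3%), and 23 did not pass, against 32.9% and 32.0% of all genes. In ECs against control, 54 were higher (58.7%) and 24 lower (26.1%), against 39.0% and 37.9% of all genes. The interferons themselves were at or near 0. Of 21 ligand genes, 20 were below the filter, and none exceeded 3 counts in any control library. Ifng and 15 of the type I and type III genes had no count in any library. The exception was Ifne, an epithelial type I interferon, with 47, 26, and 48 counts in the ECs, 1, 0, and 0 in treated osteoblasts, and 0 in each control library, which is at least 14.5-fold higher in ECs than control at the limit of 3 counts per library.

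The receptors were expressed in all groups. Ifnar1 rose from 89.3, 92.0, and 88.9 CPM in control to 153.6, 158.3, and 146.4 CPM in treated osteoblasts (log2 fold change 0.76 ± 0.04, adjusted p = 1.64e-10), with 146.3, 144.1, and 146.6 CPM in ECs. Ifnar2, Ifngr2, and Il10rb also rose, and Ifngr1 and the lambda receptor Ifnlr1 did not pass (adjusted p = 0.0841 and 0.182). Of the kinases and other signal transducers named here, Jak1, Tyk2, and Stat3 rose and Jak2 fell (log2 fold change -0.59 ± 0.05, adjusted p = 8.29e-09).

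Among 12 tested sensors and adaptors that lead to interferon production, 9 rose and 2 fell (75.0% and 16.7%, against 32.9% and 32.0% of all genes). The kinases Tbk1 and Ikbke, which activate IRF3, rose by 0.78 ± 0.05 and 1.16 ± 0.07 on the log2 scale (adjusted p = 2.13e-10 and 2.6e-10), and Irf3 by 0.73 ± 0.05 (adjusted p = 5.3e-10). Cgas, the sensor of cytosolic DNA, fell from 11.6, 10.3, and 12.4 CPM to 3.35, 3.13, and 2.94 CPM (log2 fold change -1.85 ± 0.09, adjusted p = 3.33e-11). Its adaptor Tmem173 (STING) rose from 2.19 ± 0.206 to 4.11 ± 0.415 CPM, with a level of 20.3 ± 0.211 CPM in ECs. Traf3 was the other gene that fell.

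Of the 16 tested brakes on the pathway, 7 rose and 6 fell (43.8% and 37.5%), shares near the 32.9% and 32.0% of all genes. Socs3, an inhibitor of JAK kinases, rose from 51.1, 56.7, and 51.0 CPM in control to 204.9, 211.2, and 195.7 CPM in treated osteoblasts (log2 fold change 1.94 ± 0.05, adjusted p = 1.71e-14), and the ECs were lowest at 16.1, 15.4, and 16.8 CPM. The phosphatase gene Ptpn1 rose by 1.15 ± 0.05 and the RNA-editing enzyme gene Adar by 0.81 ± 0.06 (adjusted p = 1.78e-12 and 1.03e-08). All 3 subunit genes of RNase H2, which removes RNA from DNA, fell, with Rnaseh2b at -1.18 ± 0.07 (adjusted p = 2.52e-10).

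**Figure D5:**
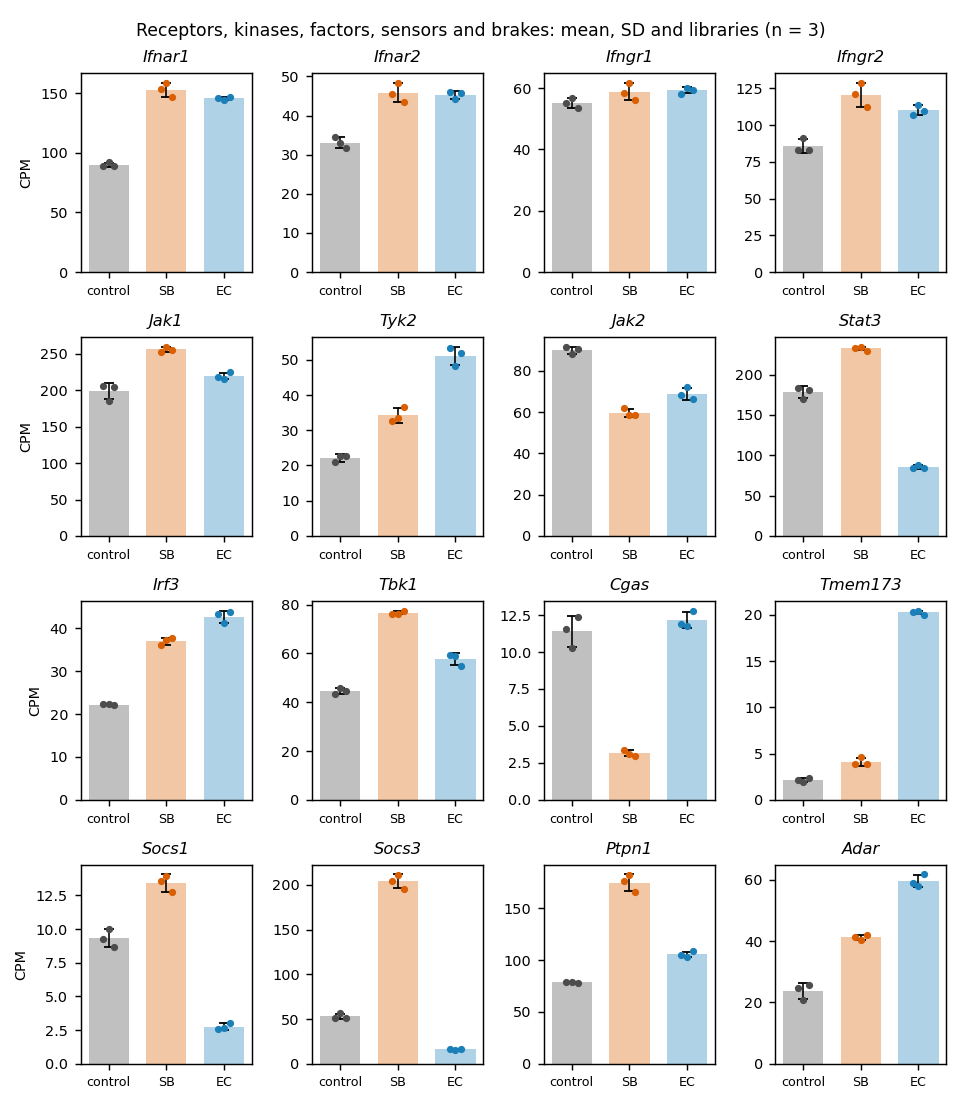
Levels in CPM of 16 genes of the pathway in control, SB216763-treated (SB), and EC libraries, with the mean as a bar, the SD as an error bar, and each of the 3 libraries as a point. Ifnar1, Tbk1, Socs3, and Ptpn1 are higher in treated than in control osteoblasts, and Cgas is lower.

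Of 48 further interferon-stimulated genes tested, 29 rose with SB216763 and 6 fell (60.4% and 12.5%, against 32.9% and 32.0% of all genes). Gbp8 had no count in the control libraries and 122, 117, and 121 counts in the treated libraries, at least 47.8-fold higher at the limit of 3 counts per library. Gbp9 rose from 0.126, 0.146, and 0.139 CPM to 12.3, 11.7, and 13.1 CPM, and the ECs held 114.7, 116.2, and 111.8 CPM (log2 fold change 6.47 ± 0.12 for treated against control, adjusted p = 2.04e-16). Gbp4, Gbp8, and Gbp9 share 60 or 61 exon bases at one end. Ifi203, a member of the HIN-200 family of DNA-binding proteins, rose from 0.527 ± 0.0215 to 14.1 ± 0.908 CPM. The chemokine gene Ccl2 fell most, from 5.84, 7.17, and 7.01 CPM to 0.43, 0.391, and 0.327 CPM (log2 fold change -4.11 ± 0.15, adjusted p = 7.67e-13), while ECs held 19.9 ± 0.356 CPM.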

How the data were processed

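RNA-Seq was performed by the authors on 9 libraries in 3 groups of 3. The submitters' processing notes name STAR 2.5.3a and GRCm38, and the annotation and strand setting are not given in the sources used here. The authors deposited whole-number read counts per gene, without normalization, for 50686 Ensembl genes. All 9 columns were matched to samples by name. The members and the other gene lists were chosen with earlier results of these data known.

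Counts were tested in R 4.3.3 with edgeR 4.0.16 (filterByExpr by group, TMM, and one quasi-likelihood fit of the 9 libraries), with Benjamini-Hochberg adjustment over the 15531 genes tested. A gene changed at an adjusted p under 0.01, and 4-fold also required a log2 fold change of 2 or more in size, which are the cutoffs of the study. The prior count was 0.125. CPM and RPKM used TMM-scaled library sizes and GENCODE M21 exon lengths on GRCm38. Count ratios of genes with at most 3 counts per library have exact 95% intervals. Promoter windows came from RefSeq (GRCm38.p6). All members are named, and full statistics are given for the largest changes, transcription factors, sensors, and the IFITM family. Alternatives used limma-voom (limma 3.58.1), DESeq2 1.42.0, other scalings, filters, thresholds, and samples. The test was tried on simulated data. No 2 replicates agreed within sampling noise (chi-square per gene 2.85 to 104). One gene of the pathway list is counted in its totals and not reported here.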

Additional observations from a re-analysis of the deposited data

How the results depend on the processing

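Over 18 counts of members or pathway genes, 5 moved by more than 1.5 times, all at a log2 fold change cutoff of 1 in place of 2. The number of members past the fold cutoff then became 14 higher and 3 lower in SB216763-treated against control osteoblasts, 4 lower in ECs against control, and 16 higher and 7 lower in ECs against treated osteoblasts. The shares of all genes at this looser cutoff were not computed, so these counts cannot be set beside them. When single libraries were removed, the members that rose with SB216763 numbered 23 to 27 and those that fell 7, and under the other settings at the same cutoff 24 to 31 and 7. Scaling by library size alone moved the median log2 fold change of all genes from 0.0142 to 0.218 for treated against control and from 0.00742 to 0.134 for ECs against control. It brought Irf7, Oas2, Parp12, and Irgm1 past the threshold in treated against control, and it reversed values that did not pass, to 0.077 for Stat2 and 0.0743 for Herc6 in treated against control, 0.0228 for Xaf1 in ECs against control, and -0.0325 for Eif2ak2 in ECs against treated. Oasl1 in treated against control ran from -3.36 to 0.50 over the fits without 1 library and was positive without control replicate 1 (0.50), SB216763 replicate 2 (0.0373), or SB216763 replicate 3 (0.0106). Cmpk2 ran from -0.0392, without control replicate 2, to 0.45. Their causes were not tested. No member past the threshold reversed. Of 2288 values of single members under alternatives, 2215 kept direction and call, 51 lost the call, 14 gained it, and 8 reversed.

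Libraries of the same replicate number shared little deviation across groups. Their correlation, each library taken as its difference from the mean of its group, ran from -0.0392 to 0.123. These values cannot show whether the replicates were paired. With the replicate number as a block, 26 members rose and 7 fell with SB216763, 33 and 6 differed in ECs against control, and 26 and 12 in ECs against treated. In fits of only the 2 groups compared, 7 values could not be had because the gene missed the filter (Oas1a, Oas2, Oas3, Oasl1, Rsad2, and Cmpk2 in treated against control, and Zbp1 in ECs against control). Depth limits what can be said of Mx1, Oas1a, Oas2, Oas3, Oasl1, and Rsad2 in osteoblasts, which were near 3 counts per library.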

Other observations

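The chromosomal families to which members belong were tabulated after their values were seen, and the counts are descriptions. With SB216763, 32.9% of all genes tested rose and 32.0% fell. The guanylate-binding proteins lie in a cluster on chromosome 3, which holds the members Gbp2, Gbp3, and Gbp7, and in a second on chromosome 5. Of 6 genes in the chromosome 5 cluster, 4 were tested (Gbp4, Gbp6, Gbp8, and Gbp9), and all 4 rose with SB216763. The 4 held 0 to 8 counts per control library and passed the filter through the other groups. This count was therefore largely set by the filter. In the chromosome 3 cluster, 3 of 5 rose. Gbp2b and Gbp5 were the other two on chromosome 3. They were at 0.0178 ± 0.0154 and 0.0464 ± 0.0343 CPM in treated osteoblasts and at 6.65 ± 0.286 and 1.76 ± 0.187 CPM in ECs (SD, n = 3). Gbp6 went from 0.113 ± 0.0114 CPM in control to 2.87 ± 0.257 CPM in treated osteoblasts and was at 1.19 ± 0.102 CPM in ECs.

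In the HIN-200 cluster on chromosome 1, whose proteins bind DNA, 10 of 13 genes were tested. Of the 10, 6 rose with SB216763 and 0 fell. Some, such as Ifi207, passed the filter only through groups other than control, which favors rises in this count. Ifi207 had 1 count over the control libraries and 369 over the treated libraries, a ratio of 494 (95% exact counting interval 88.1 to 19560). Mndal rose from 1.94 ± 0.143 to 18.2 ± 0.124 CPM (log2 fold change 3.24, adjusted p = 7.48e-15 in edgeR's quasi-likelihood test). Ifi202b had no count in the treated libraries and was at 21.8 ± 1.73 CPM in ECs, so neighbors within the cluster had different groups at their highest level. Of 6 Schlafen genes tested on chromosome 11, 2 rose (Slfn2 and Slfn8) and 2 fell (Slfn3 and Slfn9), which is near the shares of all genes. Slfn5 was at 96.8 ± 1.78 CPM in ECs against 0.0447 ± 0.0159 CPM in control and 0.0745 ± 0.0646 CPM in treated osteoblasts.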
